A study of Mus musculus with 12 samples.

Results

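The inflammasome and pyroptosis genes described here were 10 of the 43280 genes in the expression table, taken by their symbols. They were the sensors *Nlrp3*, *Nlrc4*, *Nlrp1b* and *Mefv*, the adaptor *Pycard*, the inflammatory caspases *Casp1* and *Casp4*, the pore-forming *Gsdmd*, and the necroptosis pair *Ripk3* and *Mlkl*. RNA was sequenced from bone marrow-derived macrophages (BMDM), grown in culture from the marrow of C57BL6 mice with 20 ng/ml of the growth factor M-CSF. Cells came from wild type (wt) mice or from *Treml4*-/- mice, in which the gene for a receptor of the TREM family is knocked out in the whole animal. They received vehicle (PBS) and are called M0, or lipopolysaccharide (LPS) at 100 ng/ml for 8 h (M1-8 h) or 12 h (M1-12 h). This gave 6 conditions with 2 biological replicates each and 12 libraries. How long the vehicle was left on the M0 cells, how many animals stand behind a replicate, and the sex and age of the mice are not given in the sources used here, so p-values measure the spread between these libraries.

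Inflammasomes are protein complexes of the cytosol. A sensor such as NLRP3 recognises a danger signal, recruits the adaptor ASC (the product of *Pycard*), and brings caspase-1 molecules together so that they cut themselves and become active. Active caspase-1 matures the cytokines IL-1β and IL-18 and cuts gasdermin D, whose fragment forms pores in the plasma membrane and kills the cell by pyroptosis. LPS that reaches the cytosol is bound directly by caspase-11, the product of mouse *Casp4*, which cuts gasdermin D without a sensor. RIPK3 and its substrate MLKL carry out necroptosis, another lytic death. In macrophages, LPS sensed at the surface through TLR4 is the classical priming signal, which acts on transcript levels. The route by which LPS acted was not tested here. Assembly and cleavage are protein events that RNA-seq does not measure.

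The deposited values are log2 CPM, the read counts of a gene scaled to the total reads counted in its library. Between 48008751 and 58500792 reads were counted per library, and 1 read was worth 0.0171 to 0.0208 CPM. *Treml4* itself stood at 8.35 and 6.57 CPM in wt M0, 3.997 and 3.95 CPM in wt M1-8 h, and 9.82 and 13.2 CPM in wt M1-12 h, against 0 reads in all 6 *Treml4*-/- libraries, a count for which 3 reads, or 0.0513 to 0.0625 CPM, is the upper limit for counting error alone. All 8 macrophage markers were detected, with summed levels of 20710 to 27910 CPM at M0 and 9996 to 13420 CPM after LPS. The markers did not fall together, since 4 of the 8 had a positive log2 fold change at each LPS time. The median over the 8 was 0.05 after 8 h and 0.08 after 12 h. The summed level of 5 LPS response genes was 44.6 to 61.5 CPM at M0 and 18640 to 24020 CPM after LPS. The 7 neutrophil markers summed to 38.6 to 127 CPM, with 107.5 CPM in wt M0 replicate 1 and 38.6 CPM in wt M0 replicate 2. T cell, B cell, NK cell and mast cell markers each summed to under 1 CPM in every library, the 3 fibroblast markers summed to at most 2.39 CPM, and the 4 dendritic cell markers to 7.69 CPM or less. In cultures measured in bulk, fewer cells of a type and less RNA per cell cannot be told apart.

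LPS moved most of the 10 genes at both times. At M1-8 h *Nlrp3*, *Mefv*, *Casp1*, *Casp4*, *Mlkl* and *Ripk3* were higher than at M0 and *Nlrp1b* was lower. At M1-12 h the same 6 genes were higher, and *Nlrp1b* and *Pycard* were lower. The genes with the largest rises were *Casp4* at 14.5-fold and *Nlrp3* at 8.66-fold after 8 h. Here and throughout, a gene was called changed at an adjusted p under 0.05 in limma (Benjamini-Hochberg over 12086 genes tested) and a fold change of at least 1.4 on the log2(CPM + 1) scale, and LPS contrasts are means of both genotypes unless a genotype is named. All 10 genes passed the filter on low values.

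These counts stand against a response that reached most of the transcriptome. At M1-8 h 7 of the 10 genes passed, where 76.9% of all genes tested were called, but 6 of the 10 were higher against 17.1% of all genes, and 1 was lower against 59.8%. At M1-12 h 8 of the 10 were called against 76.5% of all genes, 6 higher against 16.3% and 2 lower against 60.3%. The median log2 fold change of the 10 genes was 1.33 at M1-8 h and 0.78 at M1-12 h, beside medians of -0.72 and -0.76 over all genes tested. Both LPS contrasts share the M0 libraries.

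The downward median over all genes depends on the scaling. Scaled by the median of ratios, which centres the typical gene, the medians of all genes were -0.04 at both times, and calls were even, with 62.5% of genes called at M1-8 h and 65.3% at M1-12 h, at 31.1% higher and 31.4% lower at M1-8 h and 32.7% higher and 32.6% lower at M1-12 h. Under that scaling 9 of the 10 genes were called higher and 1 lower at M1-8 h, and 8 higher and 1 lower at M1-12 h. The 50 most abundant genes took 21.9% to 24.1% of the reads in wt M0 and 28.3% to 28.8% in wt M1-12 h, with *Treml4*-/- libraries at 22.3% to 22.4% and 27.9% to 28.4%. The part of this shift in the results was not tested. The direction of *Nlrp3*, *Mefv*, *Casp1*, *Casp4*, *Mlkl*, *Ripk3* and *Nlrp1b* was the same under both scalings, while *Nlrc4*, *Gsdmd* and *Pycard* gained or lost a call, as given with each gene.

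**Figure D1:**
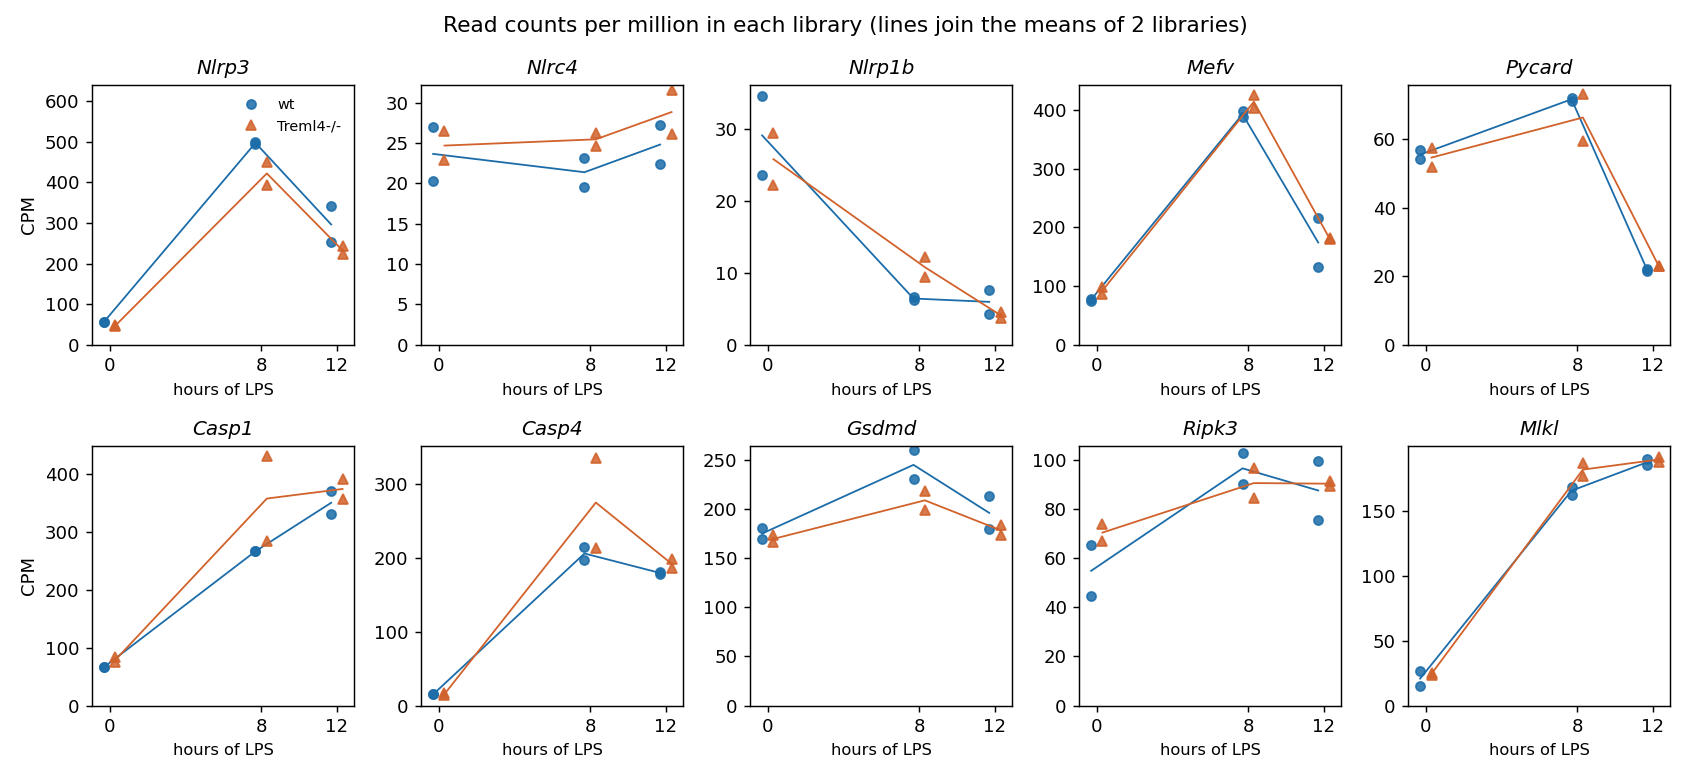
Level of each of the 10 genes in CPM (vertical axes, linear and starting at 0) against hours of LPS, with 1 point per library (circles wt, triangles *Treml4*-/-) and lines through the means of 2 libraries. *Nlrp3* and *Mefv* peak at 8 h, *Casp1*, *Casp4* and *Mlkl* stay high at 12 h, *Pycard* drops to 21.5 to 23.1 CPM at 12 h, and *Nlrp1b* is low at both LPS times.

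Among the sensors, *Nlrp3*, whose product answers to potassium efflux and many other insults, had the steepest rise. Its levels were 56.7 and 57.1 CPM in wt M0 and 46.3 and 48.5 CPM in *Treml4*-/- M0. At M1-8 h they were 501 and 494 CPM in wt and 449.6 and 394 CPM in *Treml4*-/- cells, and at M1-12 h 252 and 341 CPM in wt and 243 and 222 CPM in *Treml4*-/- cells. All LPS libraries lay above all M0 libraries, and all M1-12 h libraries below all M1-8 h libraries. The log2 fold change was 3.12 ± 0.0884 (SE, adjusted p = 3.22e-11) at M1-8 h and 2.31 ± 0.0884 (adjusted p = 3.46e-10) at M1-12 h, and M1-12 h was lower than M1-8 h by 1.75-fold (adjusted p = 1.63e-05). *Mefv*, which encodes the sensor pyrin, followed the same course with a lower peak. It went from 75.0 and 78.9 CPM in wt M0 to 388 and 398 CPM in wt M1-8 h and 132 and 216 CPM in wt M1-12 h. In *Treml4*-/- cells the levels were 86.8 and 98.4 CPM, then 426 and 403 CPM, then 181 and 182 CPM. The rise was 4.74-fold at M1-8 h (adjusted p = 6.13e-09) and 2.06-fold at M1-12 h (adjusted p = 5.5e-06), and the drop between the LPS times was 2.30-fold (adjusted p = 8.8e-06). The groups at 0, 8 and 12 h did not overlap for *Mefv*.

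*Nlrp1b*, the sensor of anthrax lethal toxin in susceptible mouse strains, went the other way. Its levels were 34.6 and 23.7 CPM in wt M0 and 22.2 and 29.4 CPM in *Treml4*-/- M0, and 6.26 and 6.63 CPM in wt M1-8 h and 9.45 and 12.2 CPM in *Treml4*-/- M1-8 h. At M1-12 h they were 4.32 and 7.64 CPM in wt and 4.58 and 3.66 CPM in *Treml4*-/- cells. Every LPS library lay below every M0 library. The log2 fold change was -1.59 ± 0.173 (adjusted p = 3.3e-06) at M1-8 h and -2.26 ± 0.173 (adjusted p = 1.31e-07) at M1-12 h, and it stayed negative and called under the median of ratios, at -0.84 and -1.48. The further drop from M1-8 h to M1-12 h was 1.59-fold (adjusted p = 0.00613), with log2 differences of -0.13 in wt (adjusted p = 0.684) and -1.201 in *Treml4*-/- cells (adjusted p = 0.00221), whose difference was not tested. Its neighbour *Nlrp1a*, 8397 bases away on chromosome 11, went from 19.9 to 27.2 CPM at M0 to 4.49 to 7.67 CPM at M1-8 h and 6.91 to 8.10 CPM at M1-12 h, with log2 fold changes of -1.74 (adjusted p = 3.83e-08) and -1.54 (adjusted p = 1.08e-07). *Nlrp1b* and *Nlrp1a* come from a tandem gene family with a further pseudogene, *Nlrp1c-ps*, yet no stretch of 126 bases, the read length, was shared between an annotated *Nlrp1b* transcript and a transcript of another gene.

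*Nlrc4*, which forms the inflammasome for bacterial flagellin and secretion systems together with NAIP proteins, moved little. Its levels ran from 20.3 to 27.0 CPM at M0, 19.6 to 26.3 CPM at M1-8 h and 22.4 to 31.6 CPM at M1-12 h, and the 3 times overlapped. The log2 fold change was -0.04 (95% interval -0.29 to 0.21) at M1-8 h and 0.14 (-0.10 to 0.39) at M1-12 h, and neither passed the test. With the median of ratios its log2 fold changes became 0.72 (adjusted p = 2.21e-05) and 0.96 (adjusted p = 1.56e-06), and with quantile normalization 0.72 and 0.93.

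*Pycard*, the adaptor between most of these sensors and caspase-1, had a course of its own. Levels at M0 were 54.2 and 56.9 CPM in wt and 57.5 and 51.8 CPM in *Treml4*-/- cells. At M1-8 h they were 72.1 and 71.2 CPM in wt and 73.3 and 59.4 CPM in *Treml4*-/- cells, and at M1-12 h 21.5 and 22.2 CPM in wt and 23.1 CPM in both *Treml4*-/- libraries. All 4 libraries at M1-12 h lay below all others, and all 4 at M1-8 h lay above all at M0. The difference at M1-8 h had an adjusted p of 0.00165 but a fold change of 1.24, under the threshold of 1.4. At M1-12 h *Pycard* was 2.39-fold lower than at M0 (adjusted p = 1.21e-08) and 2.98-fold lower than at M1-8 h (adjusted p = 4.76e-08). The first of these moved with the scaling, since with the median of ratios *Pycard* was higher at M1-8 h by a log2 fold change of 1.10 (adjusted p = 1.11e-07) and lower at M1-12 h by -0.43 (adjusted p = 0.000498, under the fold threshold). With quantile normalization *Pycard* stayed called lower at M1-12 h (-0.69, adjusted p = 7.33e-06). The drop between the LPS times was -1.53 (adjusted p = 5.49e-08) with the median of ratios. *Pycard* shares 485 exon bases with *Gm45205* on the other strand, which amounts to 9.71% of its stretches of 126 bases, and whether the authors' counting used strand is not given in the sources used here.

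Both inflammatory caspases rose. *Casp1*, which matures IL-1β and IL-18, had 66.0 and 67.3 CPM in wt M0 and 75.1 and 83.2 CPM in *Treml4*-/- M0. At M1-8 h it had 267 CPM in both wt libraries and 285 and 432 CPM in *Treml4*-/- cells, and at M1-12 h 371 and 331 CPM in wt and 392 and 358 CPM in *Treml4*-/- cells. The rise was 4.17-fold at M1-8 h (log2 2.06 ± 0.109, adjusted p = 5.25e-09) and 4.94-fold at M1-12 h (log2 2.30 ± 0.109, adjusted p = 1.95e-09), and the difference between the LPS times did not pass the test (log2 0.24, adjusted p = 0.0754). *Casp4*, the receptor for cytosolic LPS, rose more than any other of the 10 genes at M1-8 h in both genotypes. It went from 15.2 and 14.99 CPM in wt M0 and 14.03 and 16.9 CPM in *Treml4*-/- M0 to 196 and 215 CPM in wt M1-8 h and 214 and 335 CPM in *Treml4*-/- M1-8 h. At M1-12 h the levels were 178 and 181 CPM in wt and 198 and 186 CPM in *Treml4*-/- cells. The log2 fold change was 3.86 ± 0.119 (adjusted p = 6.26e-11) at M1-8 h and 3.52 ± 0.119 (adjusted p = 1.35e-10) at M1-12 h. Between the LPS times *Casp4* fell by 0.34 on the log2 scale with an adjusted p of 0.0292, under the fold threshold, and without *Treml4*-/- M1-8 h replicate 1 the difference was -0.50 and was called (adjusted p = 0.000368). *Casp1* and *Casp4* lie side by side on the plus strand of chromosome 9 with 1562 bases between them, at 5298517 to 5307265 and 5308828 to 5336783 of GRCm38. *Casp12*, the next caspase gene on that chromosome, begins 8646 bases after *Casp4*.

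*Gsdmd*, the gene of the pore itself, was already abundant at M0 and moved little. Its levels were 169 and 181 CPM in wt M0, 173 and 166 CPM in *Treml4*-/- M0, 230.4 and 260.1 CPM in wt M1-8 h and 219 and 199 CPM in *Treml4*-/- M1-8 h. At M1-12 h they were 179 and 213 CPM in wt and 173 and 184 CPM in *Treml4*-/- cells, which overlapped with M0. The fold change at M1-8 h was 1.31 (adjusted p = 0.000296), under the threshold of 1.4, and at M1-12 h 1.08 (adjusted p = 0.148). With the median of ratios *Gsdmd* was called higher at both times, with log2 fold changes of 1.18 (adjusted p = 4.89e-08) and 0.96 (adjusted p = 3.48e-07), while with quantile normalization it was called at neither (0.36 and 0.21).

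The necroptosis pair was uneven. *Mlkl*, the executioner, had 26.4 and 15.1 CPM in wt M0 and 23.8 and 25.0 CPM in *Treml4*-/- M0, against 168 and 162 CPM in wt M1-8 h, 186 and 177 CPM in *Treml4*-/- M1-8 h, and 185 to 191 CPM in the 4 libraries at M1-12 h. The rise was 7.54-fold at M1-8 h (log2 2.92 ± 0.128, adjusted p = 1.1e-09) and 8.20-fold at M1-12 h (log2 3.03 ± 0.128, adjusted p = 7.61e-10), and the LPS times did not differ past the test (adjusted p = 0.443). *Ripk3*, the kinase that phosphorylates MLKL, had 65.2 and 44.4 CPM in wt M0 and 73.7 and 67.0 CPM in *Treml4*-/- M0. It had 103 and 90.2 CPM in wt M1-8 h and 96.5 and 84.5 CPM in *Treml4*-/- M1-8 h, and at M1-12 h 99.5 and 75.5 CPM in wt and 91.3 and 89.3 CPM in *Treml4*-/- cells. Every LPS library lay above every M0 library, by little. The rise of *Ripk3* was 1.51-fold at M1-8 h (adjusted p = 0.000663) and 1.43-fold at M1-12 h (adjusted p = 0.00176), close to the threshold. It fell under 1.4-fold without wt M0 replicate 2 at both times (log2 0.46 and 0.38), and at M1-12 h also without wt M1-12 h replicate 1 (0.42) or *Treml4*-/- M0 replicate 2 (0.48). Within a genotype the rise at M1-8 h was called in wt (log2 0.83, adjusted p = 0.000823) and not in *Treml4*-/- cells (0.36, adjusted p = 0.0727), but the test of the difference did not pass (-0.47, 95% interval -1.01 to 0.07, adjusted p = 0.736).

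**Figure D2:**
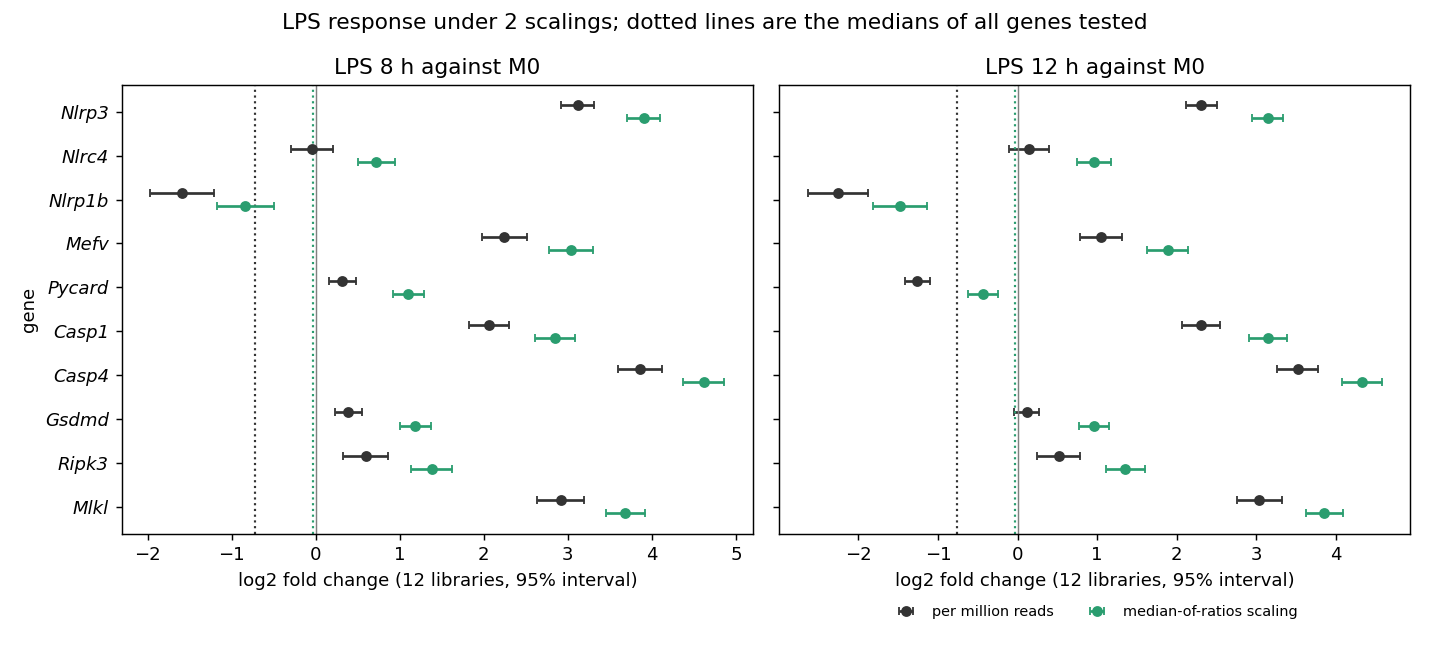
Log2 fold change (horizontal axes) of each gene (vertical axis) after 8 h (left) and 12 h (right) of LPS, mean of both genotypes over 12 libraries, with 95% intervals, from CPM (black) and after median-of-ratios scaling (green). Dotted lines mark the median of all 12086 genes, -0.72 and -0.76 in black and -0.04 in green, and 9 of the 10 genes lie to the right of the black lines at 8 h.

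Between the LPS times 4 of the 10 genes were called and all 4 were lower at M1-12 h, where 32.1% of all genes were called and 18.7% were lower. These were the sensors *Nlrp3*, *Mefv* and *Nlrp1b* and the adaptor *Pycard*. With the median of ratios the counts of members were the same, beside 32.7% of all genes called, 15.5% higher and 17.1% lower. The other 6 had log2 differences from -0.34 for *Casp4* to 0.24 for *Casp1*.

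The upstream sequence of 4 of the genes that rose is shown, *Casp4* and *Nlrp3* because a searched motif was found there and *Mlkl* and *Mefv* as genes that rose without one. RefSeq promoter windows on GRCm38.p6, from 250 bases before to 50 bases after a start site, were matched for 9 of the 10 genes in 12 windows, and *Gsdmd* was not matched. They were searched on both strands for the NF-kB consensus, the interferon-stimulated response element GAAANNGAAA, the gamma-activated site TTCNNNGAA and the AP-1 site TGANTCA, which 8.46%, 3.44%, 8.3% and 7.81% of all 32851 promoter windows hold. Only the NF-kB consensus was found, in 2 of the 9 genes, *Casp4* and *Nlrp3*. This counts genes, while the shares over all promoters count windows, and *Casp4*, *Nlrp3* and *Nlrp1b* each have a second window. The 250 bases before the start are printed 5′ to 3′ on the strand of the gene, with matches to the NF-kB consensus in capitals, at chr9:5308599-5308848 (plus strand) for *Casp4*, chr11:59541319-59541568 (plus strand) for *Nlrp3*, chr8:111338206-111338455 (minus strand) for *Mlkl* and chr16:3718125-3718374 (minus strand) for *Mefv*.
Casp4: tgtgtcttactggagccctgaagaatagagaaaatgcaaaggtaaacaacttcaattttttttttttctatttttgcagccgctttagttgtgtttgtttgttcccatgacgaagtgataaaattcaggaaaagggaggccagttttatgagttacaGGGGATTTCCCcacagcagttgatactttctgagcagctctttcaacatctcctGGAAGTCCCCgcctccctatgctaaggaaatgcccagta
Nlrp3: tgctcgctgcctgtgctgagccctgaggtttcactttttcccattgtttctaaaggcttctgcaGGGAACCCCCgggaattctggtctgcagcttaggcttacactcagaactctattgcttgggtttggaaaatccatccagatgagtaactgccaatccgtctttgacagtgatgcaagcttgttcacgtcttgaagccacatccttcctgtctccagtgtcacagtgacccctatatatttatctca
Mlkl: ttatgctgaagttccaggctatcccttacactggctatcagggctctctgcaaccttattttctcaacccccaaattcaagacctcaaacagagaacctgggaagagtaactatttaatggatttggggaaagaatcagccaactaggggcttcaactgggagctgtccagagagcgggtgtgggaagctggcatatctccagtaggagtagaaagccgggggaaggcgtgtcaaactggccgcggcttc
Mefv: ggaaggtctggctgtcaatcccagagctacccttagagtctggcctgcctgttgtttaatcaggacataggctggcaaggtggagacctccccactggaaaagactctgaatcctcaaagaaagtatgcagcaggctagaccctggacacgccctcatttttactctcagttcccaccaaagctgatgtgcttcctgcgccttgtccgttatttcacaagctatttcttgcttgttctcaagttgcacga
The *Casp4* window holds a pair of overlapping matches that begin 93 and 92 bases before the start and a further match 39 bases before it, and the *Nlrp3* window holds a match 186 bases before the start. A second *Nlrp3* window, from a start further into the gene, holds none, and a second *Casp4* window that overlaps the first holds the same matches. *Mlkl* and *Mefv*, which rose 7.54-fold and 4.74-fold at M1-8 h, have none of the 4 motifs in these windows, which says only that these letters are not there.

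Divided by the length of the principal transcript, in CPM per kilobase, the order of the 10 genes changed with LPS. At M0 *Gsdmd* led with a median of 95.6 CPM per kilobase over 4 libraries, followed by *Casp1* at 47.6 without overlap, and by *Ripk3* (23.5 to 39.0) and *Mefv* (24.2 to 31.8), which overlapped. *Pycard* (13.6 to 15.1), *Nlrp3* (11.5 to 14.2), *Mlkl* (7.63 to 13.4) and *Casp4* (9.78 to 11.8) came next, and each of these overlapped with its neighbour in the order. *Nlrp1b* (5.38 to 8.38) and *Nlrc4* (4.29 to 5.72) were the lowest and overlapped. At M1-8 h *Casp1* (178 to 288) was first and *Casp4* (137 to 234) second, and they overlapped. *Mefv* (125 to 137) overlapped with *Casp4* and with *Gsdmd* (111 to 145), and *Gsdmd* with *Nlrp3* (98.1 to 124). *Mlkl* at 87.3, *Ripk3* at 49.4, *Pycard* at 18.9, *Nlrc4* at 5.06 and *Nlrp1b* at 1.94 followed without overlap. At M1-12 h *Casp1* had 243, *Casp4* 128, *Gsdmd* 101, *Mlkl* 95.4, *Nlrp3* 61.5, *Mefv* 58.5, *Ripk3* 47.7, *Pycard* 5.96 and *Nlrc4* 5.64 CPM per kilobase, and *Nlrp1b* 1.08. Among these, *Nlrp3* and *Mefv*, *Mefv* and *Ripk3*, and *Pycard* and *Nlrc4* overlapped. By this measure *Casp1* went from rank 2 and *Casp4* from rank 8 at M0 to ranks 1 and 2 after LPS. The rank of *Casp4* depends on the length used. Its principal transcript has 1435 bases, while its exons together cover 3710, and the order by exon length was not computed. The length of *Pycard* was that of its principal transcript of 3800 bases, so its level per length depends on this gene model.

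The comparison of *Treml4*-/- with wt asks whether the receptor affects these genes, and differences are given as *Treml4*-/- minus wt. In limma 0 of the 10 genes were called at M0, after 8 h or 12 h, or in the mean of the 3 time points, where 0.0993%, 0.0910%, 0.132% and 0.414% of all genes were called. At an unadjusted p under 0.05 there were 0 of the 10 genes at M0, 4 at M1-8 h, 1 at M1-12 h and 3 in the mean, where 3.35%, 21.0%, 7.55% and 20.1% of all genes passed. The voom fit on the recovered reads also called 0 at each. The median log2 difference of the 10 genes was 0.05 without LPS, 0.10 after 8 h and 0.07 after 12 h, beside 0.03, 0.07 and 0.05 over all genes tested.

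*Nlrp3* was the member whose libraries were separated by genotype at every time. How many of all genes are separated in this way was not counted, so the separation only describes these libraries. At each of the 3 time points both *Treml4*-/- libraries lay below both wt libraries, with the values given above. The log2 difference was -0.26 without LPS, -0.24 after 8 h and -0.33 after 12 h. The last of these was -0.12 without wt M1-12 h replicate 2 and -0.55 without replicate 1, and the value after 8 h was -0.15 without *Treml4*-/- M1-8 h replicate 2 and -0.37 with the median of ratios. The sample titles repeat the same 2 biological replicates of a genotype at all 3 times, but the fit took every library as independent. Means over the time points therefore rest on 2 replicates a genotype, and their intervals may be too narrow. The mean of *Nlrp3* over the time points was -0.28 (95% interval -0.44 to -0.12, adjusted p = 0.108), a 1.21-fold lower level that did not pass the test. The adjusted p of this mean ranged from 0.018 (without wt M1-12 h replicate 1) to 0.278 with 1 library left out and from 0.038 (median of ratios) to 0.213 under the other settings, and the difference stayed under 1.4-fold in all of them. *Gsdmd* was also lower in *Treml4*-/- cells in the mean, by 0.13 on the log2 scale (adjusted p = 0.239), and its libraries were separated by genotype at M1-8 h (-0.23, adjusted p = 0.233). At that time the libraries of *Nlrp3*, *Nlrc4*, *Nlrp1b*, *Mefv*, *Casp1* and *Mlkl* were separated too, and all of these but *Nlrp3* were higher in *Treml4*-/- cells. From CPM, the *Gsdmd* difference at M1-8 h was -0.14 without wt M1-8 h replicate 2. Under median-of-ratios scaling with all libraries, the *Gsdmd* mean was -0.22 (adjusted p = 0.129) and the difference at M1-8 h -0.36 (adjusted p = 0.139). The summed macrophage markers were lower in *Treml4*-/- cells at M0 (20710 and 20950 CPM, wt 23250 and 27910 CPM) and at M1-8 h (10290 and 11030 CPM, wt 12020 and 13420 CPM). At M1-12 h, with 9996 and 10390 CPM in *Treml4*-/- cells and 10390 and 11190 CPM in wt, the sums met. Of the 8 macrophage markers, 0 were called between genotypes at any time. Their part in the lower *Nlrp3* and *Gsdmd* was not tested.

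*Casp1* and *Casp4* had higher levels in *Treml4*-/- M1-8 h, and the size of the difference rested on 1 library. The log2 difference at M1-8 h was 0.39 for *Casp1* (95% interval 0.05 to 0.73, adjusted p = 0.199) and 0.38 for *Casp4* (0.01 to 0.75, adjusted p = 0.23). *Treml4*-/- M1-8 h replicate 2 stood at 432 CPM for *Casp1* and 335 CPM for *Casp4*, while replicate 1, at 285 and 214 CPM, lay near the wt libraries. Without replicate 1 both genes were called, at 0.69 (adjusted p = 0.0183) and 0.70 (adjusted p = 0.0192), and without replicate 2 the differences were 0.09 and 0.06. With replicate 1 left out, 599 of all genes were called at M1-8 h in place of 11, so that the whole comparison at that time moves with this library. Under median-of-ratios scaling, for which the size factors were 0.773 to 0.812 in wt and 0.926 to 0.973 in *Treml4*-/- M1-8 h, the differences were 0.26 and 0.25. At M1-12 h they were 0.10 for both caspases from CPM. For *Casp1* both *Treml4*-/- libraries also lay above both wt libraries at M0, and its mean over the time points was 0.24 (95% interval 0.05 to 0.44, adjusted p = 0.194), or 0.16 with the median of ratios. The adjusted p of this mean ranged from 0.0226 to 0.462 with 1 library left out and from 0.0815 to 0.335 under the other settings.

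*Nlrp1b* had the largest genotype difference of the 10 from CPM, at M1-8 h. Its level was higher in *Treml4*-/- cells at M1-8 h (log2 0.66, 95% interval 0.12 to 1.196, adjusted p = 0.186) and lower at M1-12 h (-0.41, -0.95 to 0.13, adjusted p = 0.798), and neither passed. The value at M1-12 h was -0.059 without wt M1-12 h replicate 2 and -0.76 without replicate 1, and wt replicate 1, at 4.32 CPM, lay between the *Treml4*-/- libraries. The interaction, that is the difference between genotypes in the response to 8 h of LPS, was 0.81 (95% interval 0.05 to 1.58, adjusted p = 0.729). Of the 10 genes 0 were called in the interactions at 8 h or 12 h, where 0.00827% of all genes were called at each, and 1 and 0 had an unadjusted p under 0.05, where 6.67% and 3.82% of all genes did.

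At M0 the spread between the wt libraries was wide for some members. *Ripk3* was 65.2 and 44.4 CPM, *Mlkl* 26.4 and 15.1 CPM, and *Nlrp1b* 34.6 and 23.7 CPM in wt M0 replicates 1 and 2, the pair in which the neutrophil markers stood at 107.5 and 38.6 CPM. The part of the neutrophil markers in these values was not tested. The log2 difference of *Mlkl* at M0 was 0.27 (adjusted p = 1), and it became 0.66 (adjusted p = 0.00567) without wt M0 replicate 1 and -0.11 without replicate 2. The difference of *Ripk3* at M0 was 0.38 (95% interval -0.000953 to 0.76, adjusted p = 1), and it was 0.65 without wt M0 replicate 1 and 0.11 without replicate 2. For *Nlrc4*, *Mefv* and *Pycard* the differences at the 3 times ranged from -0.12 to 0.26, with every interval reaching across 0.

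**Figure D3:**
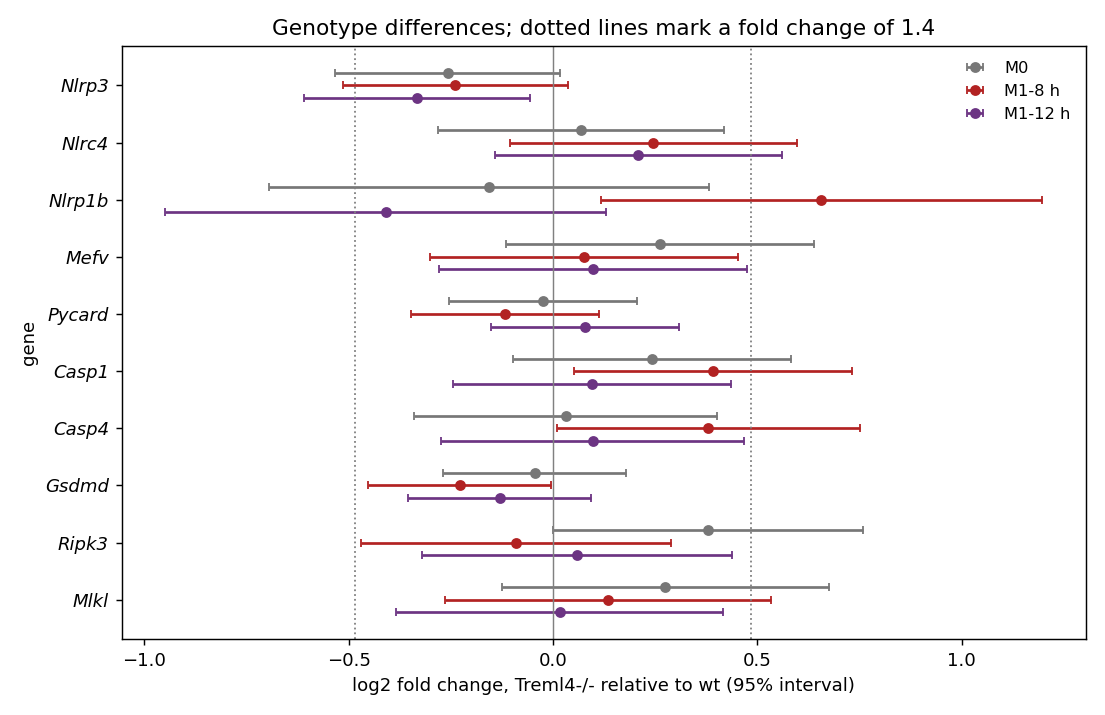
Log2 difference (horizontal axis) of each gene (vertical axis) between *Treml4*-/- and wt at M0 (grey), M1-8 h (red) and M1-12 h (purple), 2 libraries against 2. The 95% intervals use a spread for each gene that is shared over all 12 libraries, so they do not show the spread at a single time. Dotted lines mark a fold change of 1.4. Of the points plotted, 1 lies outside them, *Nlrp1b* at M1-8 h at 0.66, with an interval that starts at 0.12.

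Around the 10 genes, 4 further lists of the pathway were read, with *Casp8* in both the execution and the necroptosis list. Their counts stand beside 17.1% of all genes called higher and 59.8% lower after 8 h and 16.3% higher and 60.3% lower after 12 h, and with the median of ratios 31.1% and 31.4%, then 32.7% and 32.6%. Genes named from a list are those with the largest LPS changes among its called members, and any other gene named was picked after its values were seen. None was called between genotypes at any time or in the interactions.

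Of the other inflammasome sensors 7 of 10 passed the filter on low values, and *Nlrp6*, *Nlrp9b* and *Nlrp12* did not. After 8 h 1 of the 7 was higher and 4 were lower, and after 12 h 2 rose and 2 fell, with median log2 fold changes of -0.57 and -0.05, so that the count lower after 8 h was near the share over all genes. *Nlrp1a* is described above. *Nlrp10* went from 8.71 to 11.1 CPM at M0 to 2.10 to 3.95 CPM at M1-12 h (log2 -1.60, adjusted p = 1.74e-05), and *Naip1*, a partner of NLRC4, from 0.452 to 0.868 CPM to 2.80 to 5.06 CPM (log2 1.47, adjusted p = 2.5e-08). *Aim2*, the sensor of cytosolic DNA, was the 1 gene of this list called higher at M1-8 h, at 0.67 (adjusted p = 0.000335), and the other two that were lower were *Naip2* at -0.63 and *Naip5* at -0.57. With the median of ratios the calls became 1 higher and 1 lower at M1-8 h and 5 higher and 2 lower at M1-12 h, and the sign of *Nlrp10* at M1-8 h turned from -0.68 to 0.03.

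All 14 regulators of inflammasomes passed the filter, and 4 were higher and 8 lower after 8 h, 4 higher and 6 lower after 12 h, with medians of -0.76 and -0.17, and here too the count lower after 8 h was near the 59.8% of all genes. With the median of ratios these became 6 higher and 5 lower, and 7 higher and 2 lower. The guanylate-binding proteins, which coat bacteria and expose their LPS to caspase-11, rose most. *Gbp5* went from 3.14 to 4.28 CPM at M0 to 2126 to 2407 CPM at M1-8 h (log2 8.94, adjusted p = 8.83e-15) and *Gbp2* from 26.2 to 32.2 CPM to 6978 to 8617 CPM (log2 8.08, adjusted p = 1.56e-14). *Nlrc5*, a regulator of MHC class I genes, rose by 3.73 on the log2 scale (adjusted p = 1.43e-11), and the remaining higher gene was *Casp12* at 1.16. *P2rx7*, the ATP-gated channel that triggers NLRP3, went from 72.1 to 81.9 CPM at M0 to 18.4 to 23.6 CPM at M1-8 h (log2 -1.83, adjusted p = 7.54e-09) and back to 69.0 to 92.7 CPM at M1-12 h (0.15, adjusted p = 0.192). *P2rx7* was singled out after its values were seen. Its values are from CPM alone, so its return at M1-12 h is given for that scaling only.

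Of the execution and cytokine genes 10 of 12 passed the filter, and *Gsdma* and *Gsdmc* did not. After 8 h 8 rose and 1 fell, and after 12 h 9 rose and 1 fell, with medians of 2.20 and 2.10 beside 17.1% and 16.3% of all genes higher, and with the median of ratios 9 were higher and 1 lower at both times. *Il1b*, the main substrate of caspase-1, had 0.285 to 0.924 CPM at M0, 187 to 345 CPM at M1-8 h and 128 to 297 CPM at M1-12 h (log2 7.41, adjusted p = 2.03e-11, and 6.82, adjusted p = 4.14e-11). *Il1a* had 0.0787 to 0.212 CPM at M0 and 47.2 to 63.6 CPM at M1-12 h, and *Il1rn*, the receptor antagonist, went from 25.7 to 36.4 CPM to 10062 to 12592 CPM at M1-8 h. The 1 gene that was lower was gasdermin E, listed as *Dfna5*, a pore protein cut by caspase-3, at 36.1 to 42.7 CPM at M0 and 1.30 to 2.10 CPM at M1-8 h (log2 -3.97, adjusted p = 9.91e-12). *Gsdmd* and *Dfna5*, the pair of gasdermins that passed the filter, thus stood far apart in their response.

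All 12 necroptosis regulators passed the filter, with 7 higher and 2 lower at each LPS time beside 17.1% and 16.3% of all genes higher, medians of 0.79 and 0.55, and with the median of ratios 10 higher and 1 lower, and 10 higher and 0 lower. *Zbp1*, the nucleic acid sensor that engages RIPK3, went from 7.04 to 9.94 CPM at M0 to 461 to 544 CPM at M1-8 h (log2 5.68, adjusted p = 3.1e-14). *Cflar*, which encodes the caspase-8 inhibitor cFLIP, went from 67.0 to 91.6 CPM to 856 to 1208 CPM (log2 3.70, adjusted p = 1.49e-11). *Fadd*, the adaptor that brings caspase-8 to death receptors, went from 14.03 to 16.3 CPM to 3.49 to 5.20 CPM (log2 -1.68, adjusted p = 2.19e-08), and *Tradd* was the other lower gene, at -0.72.

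**Figure D4:**
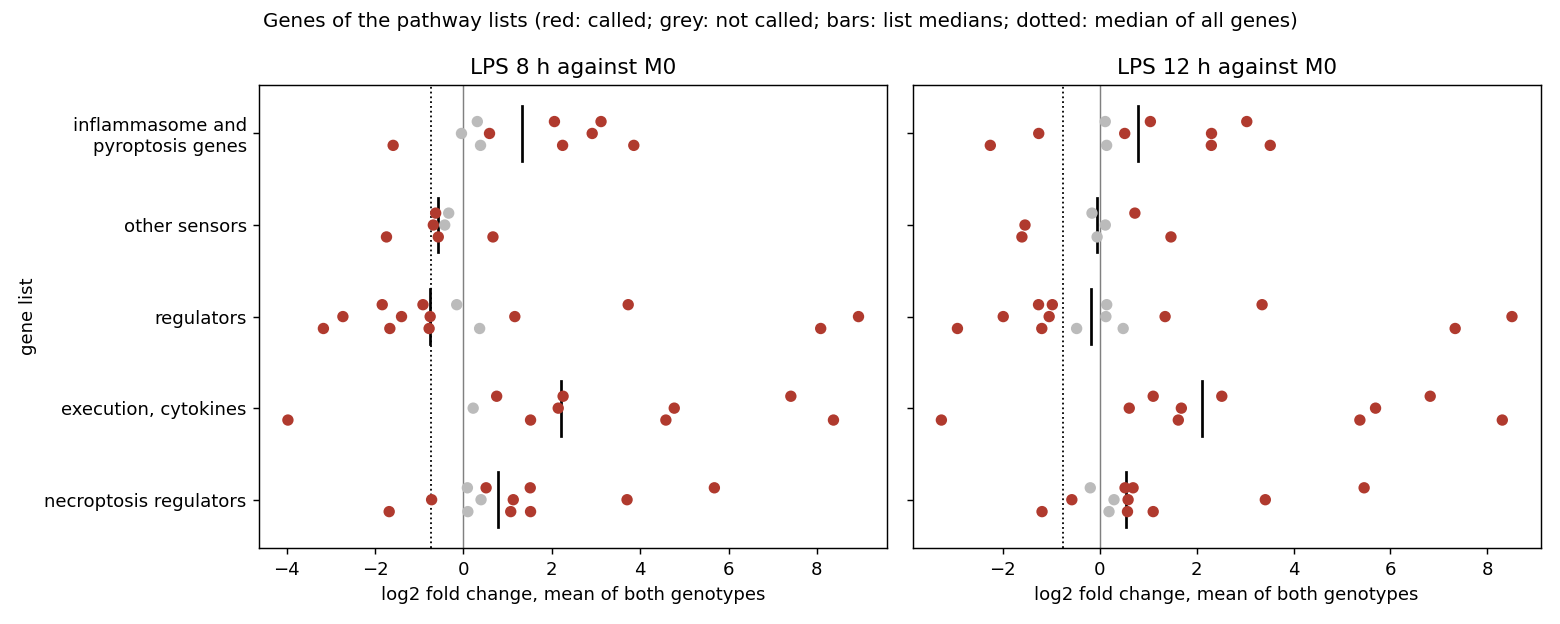
Log2 fold change (horizontal axes) after 8 h (left) and 12 h (right) of LPS, mean of both genotypes, for every gene that passed the filter in the 10 described genes and 4 further lists (vertical axis), with called genes in red and others in grey. Short bars mark list medians, 1.33 and 0.78 for the 10 genes, and the dotted line the median of all genes tested, -0.72 and -0.76.

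As a description, the genes most alike to each member were found by Pearson's r of log2(CPM + 1) over the 12 libraries, which share their time points and so fall into groups by LPS. *Nlrp3* was closest to *Rab11fip1* (r = 0.9986), *Brd2* and *Nfkbia*, and *Mefv* to *Arhgef3* (r = 0.9908), *Lmo4* and *Mb21d2*. *Casp1* was closest to *Il23r* (r = 0.9962), *Trim12a* and *Slirp*, *Casp4* to *Mndal* (r = 0.9991), *Nt5c3* and *March1*, and *Mlkl* to *Tmem67* (r = 0.9979), *Ddx58* and *Dck*. *Pycard* was closest to *Vdac2* (r = 0.9949), *Phf8* and *Ppp2r1b*, *Nlrp1b* to *Klhl5* (r = 0.9855), *Ss18* and *Gm14284*, and *Gsdmd* to *Vasp* (r = 0.9783), *Mycl* and *Sema4a*. The loosest matches were those of *Ripk3* with *Pdzd11* (r = 0.9465), *I830127L07Rik* and *Psmb7*, and of *Nlrc4* with *Setd5* (r = 0.8875), *Pafah1b2* and *Acpp*.

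Apart from the caspase pair, the members lie on separate chromosomes or far apart in GRCm38. *Nlrp3* is at 59541568 to 59566956 and *Nlrp1b* at 71153102 to 71230733 of chromosome 11, *Nlrc4* at 74425438 to 74459142 of chromosome 17, *Mefv* at 3707218 to 3718097 of chromosome 16 and *Pycard* at 127989708 to 127993867 of chromosome 7. *Gsdmd* is at 75862327 to 75867408 of chromosome 15, *Ripk3* at 55784995 to 55788865 of chromosome 14 and *Mlkl* at 111311797 to 111338177 of chromosome 8. *Treml4* lies on chromosome 17 as *Nlrc4* does, at 48264295 to 48275360. For all members but *Pycard*, 0 stretches of 126 bases of their transcripts were found in transcripts of other genes.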

How the data were processed

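Poly(A) RNA libraries (TruSeq stranded) were sequenced as 126-base pairs from 12 samples. The authors aligned reads to mm10 with STAR, per the submitters' processing notes, and deposited log2 CPM values for 43280 genes. The counting program's strand setting is not given in the sources used here. The deposited log2 values were turned back into CPM after removal of the prior count of 0.25, and 100% of them gave whole reads (tolerance 0.01). The filter kept the 12086 genes that reached 1 CPM in 2 or more libraries. The log2(CPM + 1) values entered limma 3.58.1 (R 4.3.3) with a mean-variance trend, 6 condition means over 12 libraries and Benjamini-Hochberg adjustment. Calls were made at adjusted p values below 0.05 where the change was 1.4-fold or more. The test was also run on simulated data, and no result of that run is given here. The planned test assumed CPM, and its pseudocount was kept. Replicates differed beyond sampling noise (chi-square per degree of freedom 11.3 to 51.7).

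The members and the pathway lists were chosen with earlier results of these data known. Genes named from a list were at most 3, those with the largest called LPS change, and any further gene was picked with its values known. The alternatives tried were another pseudocount, other filters, the log2 values as deposited, median-of-ratios and quantile scaling, limma without the trend, voom on the recovered reads, only the libraries compared, replicate blocks, and each library left out. The voom fit called 9704 genes for LPS at 8 h, 9578 at 12 h, and 11, 11 and 10 between genotypes at the 3 times. Positions and transcript lengths came from GENCODE on GRCm38, and promoter windows from RefSeq on GRCm38.p6.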

Additional observations from a re-analysis of the deposited data

Results flagged for a closer look

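The response to LPS differed between the time points for 4 of the 10 genes, by the test of the difference itself in limma with Benjamini-Hochberg adjustment over all genes. The LPS effect at 12 h minus that at 8 h, as a log2 difference over both genotypes, was -0.81 for *Nlrp3* (adjusted p = 1.63e-05), -0.67 for *Nlrp1b* (adjusted p = 0.00613, with -0.13 in wt and -1.201 in *Treml4*-/- cells), -1.199 for *Mefv* (adjusted p = 8.8e-06) and -1.57 for *Pycard* (adjusted p = 4.76e-08). Since both effects are taken against the same M0 libraries, this equals the difference between the LPS times, for which 32.1% of all genes were called.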

How the results depend on the processing

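Of the counts of called members per contrast, 208 values under the alternatives stayed within 1.5 times the count as reported and 2 contrasts' leave-one-out ranges did not, with 0 to 1 members called between genotypes at M0 and 0 to 2 at M1-8 h. Scaling reversed *Nlrc4* after 8 h of LPS, from -0.04 to 0.72 with the median of ratios and 0.72 with quantile normalization, both called, and *Nlrp10*, from -0.68 to 0.027 and 0.28. The cause was not tested. A sign change of a value called under neither setting was not counted as a reversal. There were 10 such among 690 genotype values under other settings and 36 among 720 with a library left out. Many of these values could not change sign. A library of another time does not enter a difference at a single time, and the filters, the trend and the blocks leave the differences as they are. These counts therefore do not measure how stable the signs are. The number of all genes called between genotypes moved with a library left out from 12 to between 7 and 220 at M0, from 11 to between 8 and 599 after 8 h, and from 16 to between 6 and 79 after 12 h. Replicate numbers were not taken as pairs, since the labels do not say that they pair wt with *Treml4*-/- libraries. The deviations of same-numbered wt and *Treml4*-/- libraries correlated at -0.264 without LPS, 0.297 after 8 h and 0.0563 after 12 h. Within a genotype, those of same-numbered libraries at different times correlated at -0.272 to 0.462. A block for the replicate within a genotype was fitted only for the LPS contrasts and the interactions. With a block by replicate number over both genotypes, 12, 12 and 15 of all genes and 55 in the mean of the time points were called between genotypes, and 0 of the members. Added after seeing the data, a block within time point gave 11, 13, 10 and 57, and with the numbers crossed at M0 11, 421, 19 and 75. For the mean of the time points the fit on only the libraries compared is the fit as reported, since it uses all 12 libraries. The 2 libraries a condition limit the precision. The printed intervals use a spread for each gene that is shared over all 12 libraries, so they do not show the spread within a condition.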
